A study of Mus musculus with 43 samples.

Results

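The 9 genes described here encode chemokine receptors: Cxcr3, Cxcr4, Cxcr6, Ccr2, Ccr4, Ccr6, Ccr7, Ccr8 and Ccr9. They were taken by name as members of 1 receptor family, and all 9 of 9 were measured, among 22180 genes on the arrays. Each had a single probe set that carried its symbol alone, so no choice between probe sets was needed.

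The cells were mouse CD4 T cells bearing the transgenic AND receptor, which recognises a moth cytochrome c peptide, lacking Rag2 and marked by CD45.1. They were transferred into recipients, sorted back as CD4+CD90.2+CD45.1+ cells and profiled on 43 arrays, 1 per sample, in 9 groups. Recipients of all antigen groups had been given an anti-CD40 antibody that activates dendritic cells. In iMCC recipients, a pair of transgenes makes dendritic cells present the peptide while doxycycline is in the drinking water, and all of them drank 100 µg/ml until day 3. From day 3 the none group drank 0 µg/ml, the low group 10 µg/ml and the int group 100 µg/ml, and cells were sorted on day 10 or day 30. The off group, sorted on day 30, drank 100 µg/ml until day 10 and 0 µg/ml afterwards. The high group, sorted on day 10, came from another strain of recipients, cMCC, whose MHC class II positive cells present the peptide constitutively, with 0 µg/ml doxycycline. Naive AND cells were sorted on day 3 after transfer into recipients without the transgenes, with 0 µg/ml doxycycline. The day 10 int and high groups held 4 arrays each, and the other 7 groups 5 each. The sources used here give no ages and do not say whether replicates are separate animals. The p-values therefore measure only the spread between these samples, which may be technical.

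Chemokine receptors are G protein-coupled receptors that turn a gradient of a secreted chemokine into directed movement, and their set changes as a T cell passes from the lymph node to tissue. Ccr7 follows Ccl19 and Ccl21 into lymph nodes and is a hallmark of naive and central memory cells. Cxcr3, with the interferon-induced ligands Cxcl9, Cxcl10 and Cxcl11, marks Th1 cells. Cxcr4 answers to Cxcl12 of stromal cells, Cxcr6 to Cxcl16, Ccr2 to Ccl2 and its relatives, Ccr4 to Ccl17 and Ccl22, Ccr6 to Ccl20, Ccr8 to Ccl1 and Ccl8, and Ccr9 to the gut chemokine Ccl25. Ccr4, Ccr6 and Ccr8 are also known from regulatory T cells, Ccr6 and Cxcr4 from B cells, and Ccr2 from monocytes.

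Of the 9 genes, 5 lie on chromosome 9 in GRCm38.p6: Ccr4 (114490316 to 114505476), Ccr8 (120092133 to 120094906), Ccr9 (123767211 to 123783457), Cxcr6 (123806477 to 123811754) and Ccr2 (124101918 to 124109140). The others are Cxcr4 on chromosome 1 (128588199 to 128592299), Ccr6 on chromosome 17 (8236041 to 8258519), Ccr7 on chromosome 11 (99144199 to 99155077) and Cxcr3 on chromosome X (101731535 to 101734147). Windows of 250 bases upstream of a transcript start were taken from RefSeq promoters for 8 of the 9 genes, with no entry for Ccr7. They were searched on both strands for GGAAA, the core bound by NFAT, for the AP-1 site TGANTCA, for GGTGTG, a half-site of T-box factors, and for the CACCC box of KLF factors. Matches of different motifs may share bases. The windows of 4 genes follow, with matches in capitals: Cxcr3 and Ccr8, called against naive cells on both days, Cxcr4, called under antigen on both days, and Ccr4, whose window holds the joined motif described after them.

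Cxcr3, GRCm38.p6 chrX:101734148-101734397, minus strand: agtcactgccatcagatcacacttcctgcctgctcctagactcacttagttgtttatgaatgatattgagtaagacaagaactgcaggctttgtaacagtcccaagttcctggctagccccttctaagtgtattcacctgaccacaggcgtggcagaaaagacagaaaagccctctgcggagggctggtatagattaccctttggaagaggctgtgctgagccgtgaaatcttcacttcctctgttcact
Ccr8, GRCm38.p6 chr9:120091883-120092132, plus strand: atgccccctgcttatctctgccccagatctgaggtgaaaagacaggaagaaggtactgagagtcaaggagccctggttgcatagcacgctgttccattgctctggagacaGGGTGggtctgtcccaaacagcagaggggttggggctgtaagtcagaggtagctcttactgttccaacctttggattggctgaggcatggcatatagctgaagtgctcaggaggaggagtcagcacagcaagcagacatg
Cxcr4, GRCm38.p6 chr1:128592300-128592549, minus strand: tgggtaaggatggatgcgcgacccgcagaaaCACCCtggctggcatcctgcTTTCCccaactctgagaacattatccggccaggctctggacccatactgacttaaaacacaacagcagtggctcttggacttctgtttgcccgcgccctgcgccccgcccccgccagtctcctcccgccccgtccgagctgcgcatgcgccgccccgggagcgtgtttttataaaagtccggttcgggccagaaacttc
Ccr4, GRCm38.p6 chr9:114496545-114496794, minus strand: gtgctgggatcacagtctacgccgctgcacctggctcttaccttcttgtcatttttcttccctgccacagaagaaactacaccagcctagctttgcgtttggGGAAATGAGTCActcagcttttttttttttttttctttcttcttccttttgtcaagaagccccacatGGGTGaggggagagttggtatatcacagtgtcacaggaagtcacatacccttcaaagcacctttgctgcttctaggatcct

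The Cxcr3 window held none of the 4 motifs, and the Ccr8 window 1 CACCC box. In the Cxcr4 window there were 1 CACCC box and 1 NFAT core. In the Ccr4 window, an NFAT core was joined directly to an AP-1 site (the longest run of capitals), and there was 1 CACCC box. This window lies inside the gene's outer bounds, so its start is not the outermost one. Of all 32851 such windows, 55.6% held GGAAA, 6.75% TGANTCA, 16.3% GGTGTG and 52% CACCC. The joined form, GGAAATGANTCA, was looked for after it had been seen in Ccr4 and was in 13 windows (0.0396%). A match is a string of letters, not a measured site.

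Values are log2 signals as deposited, and differences are log2 fold changes, first group minus second, ± SE from limma with Benjamini-Hochberg adjusted p over all 22180 genes. A gene was called at an adjusted p under 0.05. Array medians over all probe sets lay between 3.28 and 3.44. The sorted cells carried their defining transcripts, with Cd4 at 8.78 or more and Cd3e at 10.33 or more on every array. Of 6 B cell markers measured, Ighm was at 8.44 or more on every array, and Cd79b reached 8.69 and Cd79a 7.68. Of 11 myeloid markers, S100a8 reached 10.70, S100a9 10.12 and Lyz2 8.34. These 5 maxima were all on naive replicate 3. Other naive arrays also carried Cd79a, at 5 in replicate 1 and 4.44 in replicate 2, against 3.02 to 4.08 in day 10 none cells. Limma called Cd79a and Cd79b lower in none than naive cells on both days. It called 2 of the 11 myeloid markers lower on day 10 and 6 on day 30, against 3.3% and 4.33% of all genes called. The part of such cells in the receptor differences from naive was not tested. The summed myeloid signal was 11.75 and 11.11 (log2) in naive replicates 3 and 4 and 7.36 to 9.03 in the other naive arrays. Results were also recomputed without 4 arrays that an earlier reading of these data had set apart, naive replicates 3 and 4, day 10 none replicate 4 and day 10 high replicate 2, and are given where a call changed. The myeloid sum does not set the latter pair apart, at 9.37 and 7.82, since off cells reached 9.51. Of the 5 regulatory T cell markers Foxp3, Ikzf2, Il2ra, Ctla4 and Nrp1, 3 were lower and 1, Nrp1, higher in none than naive cells on each day. In int against none on each day and in high against none, 4 were higher. Of all genes, 1.24% were called in int against none on day 10, 2.21% on day 30 and 5.25% in high against none. Since RNA came from bulk cells, fewer cells of a type and less RNA per cell cannot be told apart.

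**Figure D1:**
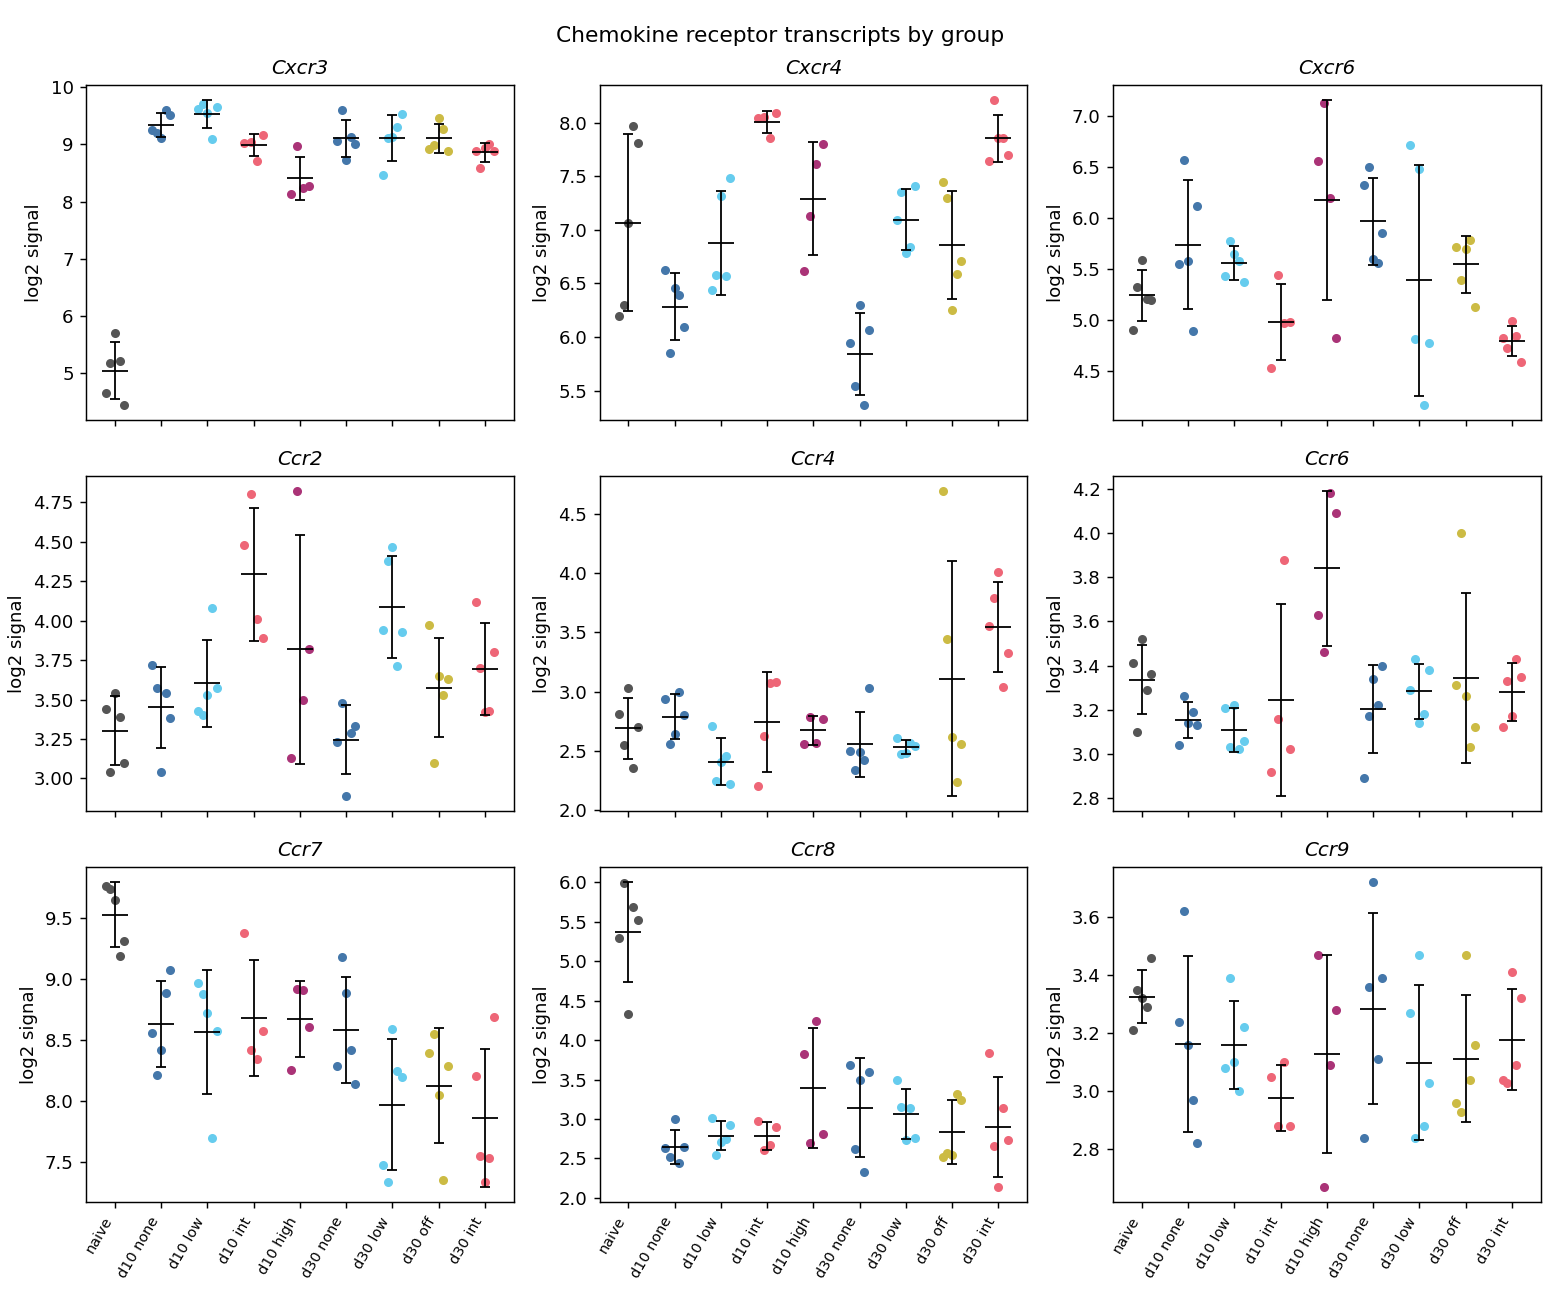
Points are single arrays (log2 signal, vertical axis) for each of the 9 genes in the 9 groups, with the mean and SD as bars, and each panel has its own scale. Naive cells are lowest for Cxcr3 (4.44 to 5.7) and highest for Ccr8 (4.33 to 5.99), while Cxcr4 is highest in the int groups of both days.

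Naive cells were first set against cells primed until day 3 and then left without antigen, which asks what a short encounter with antigen leaves in the receptor set. Day after transfer, recipient and doxycycline also differ between these groups, and the anti-CD40 antibody is described only for recipients of the antigen groups. Priming cannot be told apart from any of these. Brief priming went with a large rise of the Th1 receptor Cxcr3, a fall of Ccr8 and a smaller fall of the lymph node receptor Ccr7. On day 10, limma called 3 of the 9 genes, 1 higher and 2 lower, against 3.3% of all genes. On day 30 it called 4, 1 higher and 3 lower, against 4.33%. The median difference of the 9 genes was -0.16 on day 10 and -0.13 on day 30, beside -0.01 and 0.02 over all genes.

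Cxcr3 stood at 4.65, 5.17, 5.7, 5.2 and 4.44 on the naive arrays. On day 10 none arrays it read 9.26, 9.2, 9.11, 9.61 and 9.51, and on day 30 none arrays 9.06, 9.61, 8.72, 9.14 and 9. Every primed array lay above every naive array, since the lowest primed value of any group was 8.14. The difference was 4.31 ± 0.19 (19.8-fold, adjusted p = 3.24e-21) on day 10 and 4.07 ± 0.19 (16.8-fold, adjusted p = 2.88e-20) on day 30. Tbx21, which encodes T-bet, the Th1 factor known to drive Cxcr3, was higher as well (2.58 ± 0.24, adjusted p = 7.38e-11 on day 10, and 2.03 ± 0.24, adjusted p = 5.1e-08 on day 30).

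Ccr8, a receptor of Th2 and regulatory T cells, went the other way. Its naive values were 5.3, 5.99, 4.33, 5.69 and 5.52. On day 10 none arrays it read 2.63, 2.52, 3, 2.44 and 2.64, and on day 30 none arrays 3.69, 2.62, 3.49, 2.33 and 3.59. The lowest naive value, in replicate 3, still exceeded the highest primed one, 4.24 in the day 10 high group. The fall was -2.72 ± 0.28 (adjusted p = 2.09e-09) on day 10 and -2.22 ± 0.28 (adjusted p = 3.48e-07) on day 30, and without the 4 arrays it was -2.91 and -2.46. Many primed values lay below the array medians, where signals are compressed.

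Of the 5 markers of regulatory T cells, 3 were lower beside Ccr8 in each of these comparisons. Nrp1 went the other way, higher by 2.11 (adjusted p = 5.77e-08) on day 10 and 2.67 (adjusted p = 2.16e-10) on day 30. Ikzf2 had the largest fall, at -3.26 on day 10 and -3.85 on day 30. The summed signal of the 5 markers ran from 8.91 to 9.53 in naive cells, 7.01 to 7.97 in day 10 none and 7.31 to 7.59 in day 30 none cells. Foxp3, the defining factor of regulatory T cells, was at 5.36 on average in naive cells, and lower in none cells by -1.55 (adjusted p = 6.02e-05) on day 10 and -1.62 (adjusted p = 3.4e-05) on day 30. In the int groups the same sum was 9.11 to 9.59 on day 10 and 9.25 to 9.64 on day 30, mainly from Ikzf2, while Ccr8 there was 2.61 to 2.98 and 2.14 to 3.84. Foxp3 itself averaged 3.60 and 3.89 in the int groups. The part of regulatory T cells in the Ccr8 difference was not tested.

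**Figure D2:**
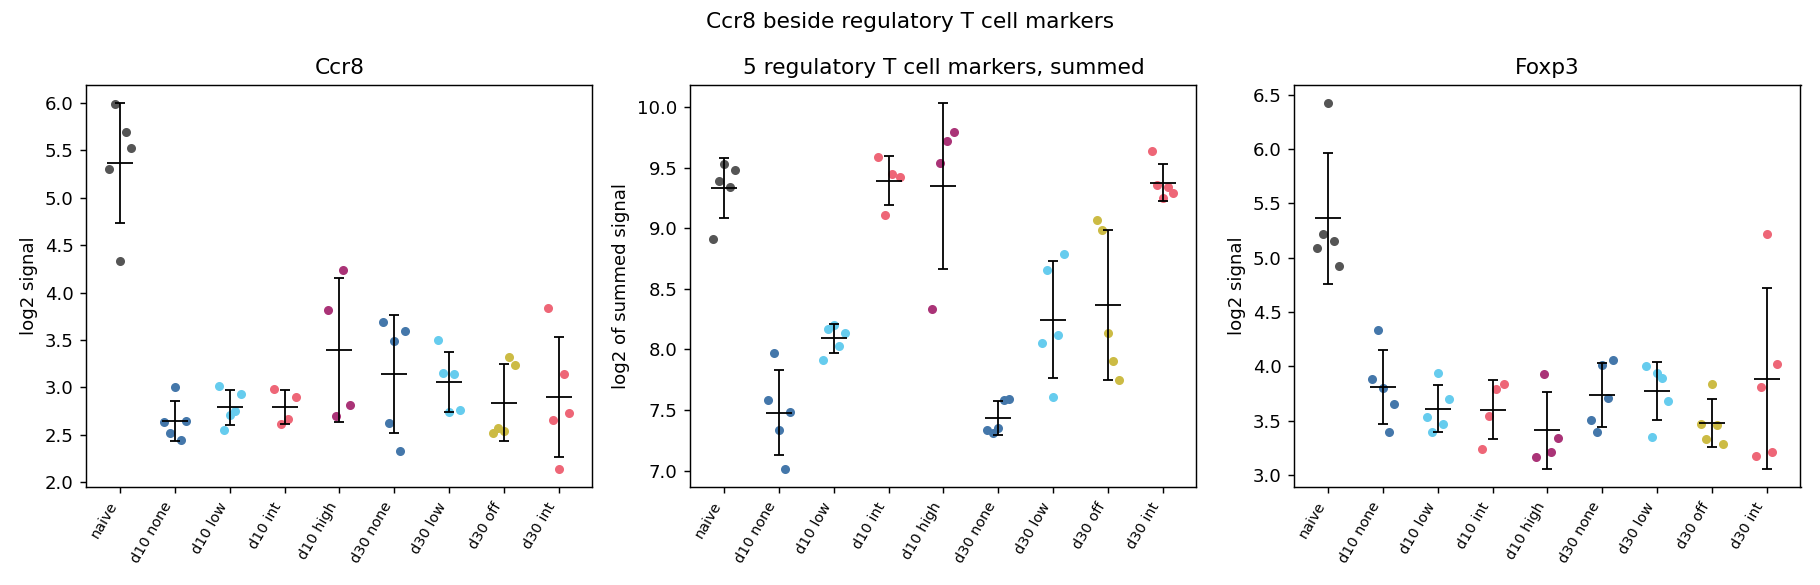
Left, Ccr8; middle, the log2 of the summed signal of 5 regulatory T cell markers; right, Foxp3, all as single arrays by group with mean and SD. The marker sum is high in naive, int and most high arrays (8.34 to 9.80 in high), whereas Ccr8 and Foxp3 are highest on average in naive cells.

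Ccr7 was at 9.76, 9.74, 9.65, 9.19 and 9.31 in naive cells. It read 8.56, 8.22, 8.42, 8.89 and 9.08 on day 10 none arrays and 8.29, 9.18, 8.89, 8.42 and 8.14 on day 30 none arrays. The groups did not overlap, although the nearest arrays were 9.19 and 9.18. The fall was -0.90 ± 0.26 (adjusted p = 0.046) on day 10 and -0.95 ± 0.26 (adjusted p = 0.027) on day 30. Both calls were fragile. The day 10 call ended on leaving out none replicate 1, 2 or 3 or naive replicate 1, 2, 3 or 5 (adjusted p 0.0556 to 0.151), with median centring (0.0527), with no variance trend (0.0552) and without the 4 arrays (0.104). The day 30 call ended on leaving out none replicate 1, 4 or 5 or naive replicate 1, 2 or 3 (adjusted p 0.0599 to 0.0846) and without the 4 arrays (0.0588), where the difference was -1.02.

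Cxcr4 varied widely among naive arrays, at 6.2, 6.3, 7.06, 7.97 and 7.81. On day 30 none arrays it was 5.94, 5.54, 6.3, 5.37 and 6.07, lower by -1.22 ± 0.27 (adjusted p = 0.0042). The groups overlapped between 6.2 and 6.3. The call ended without the 4 arrays (-0.93, adjusted p = 0.0743) and in a fit of the compared groups alone (adjusted p = 0.0774). Naive replicates 3 and 4, with high myeloid signal, and replicate 5 were the upper 3 of the naive arrays for Cxcr4. The day 10 difference of -0.78 ± 0.27 was not called (adjusted p = 0.127), except on leaving out naive replicate 1 (adjusted p = 0.0329) or 2 (0.0327). Cxcr6, Ccr2, Ccr4, Ccr6 and Ccr9 were not called in either comparison, with differences between -0.18 and 0.73.

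Persisting antigen was then set against none cells sorted on that day. The low, int and off groups had been primed as the none group had, and the high group had not. Cxcr4, the receptor of stromal Cxcl12, was higher in int than none cells on both days, in day 30 low and in day 10 high cells. Ccr2 was higher by less, in day 10 int and day 30 low cells, and Ccr4 in day 30 int cells. Cxcr3 and Ccr7 were called in none of the low, int and off comparisons with none. The none arrays are shared by the comparisons of a day, so these are not independent of each other.

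On day 10, Cxcr4 was 6.63, 5.85, 6.46, 6.39 and 6.09 on none arrays and 6.44, 6.58, 7.32, 6.57 and 7.48 on low arrays. It read 8.04, 8.05, 7.86 and 8.09 on int arrays, all above every none and low array. Values of the high group were 6.62, 7.13, 7.61 and 7.8, below all int arrays, with the lowest inside the none range. The int group exceeded none by 1.73 ± 0.29 (3.31-fold, adjusted p = 0.000184), a call that held in all 7 other settings and on leaving out each of 9 arrays. High exceeded none by 1.01 ± 0.29 (adjusted p = 0.0292), but this call ended on leaving out high replicate 3, 4 or 5 or none replicate 2 or 5 (adjusted p 0.0522 to 0.115). Low against none gave 0.59 ± 0.27 (95% interval 0.04 to 1.15, adjusted p = 1), which was not called.

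Int exceeded low by 1.13 ± 0.29 on day 10, short of the threshold (adjusted p = 0.06), with 4 of 4 int arrays above all low arrays. It passed without low replicate 5 (adjusted p = 0.0312), without the 4 arrays (0.0313), without dim genes (0.0296), with only the compared groups (0.0161) and with a replicate block (0.0465). High against int was -0.72 ± 0.31 (95% interval -1.34 to -0.10, adjusted p = 0.264) and was not called, although 4 of 4 high arrays lay below all int arrays.

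On day 30 the Cxcr4 values were again lowest without antigen. Low arrays read 7.09, 7.35, 6.78, 6.84 and 7.41, and int arrays 7.64, 8.21, 7.86, 7.86 and 7.7. Both groups lay wholly above the none arrays, whose highest value was 6.3, and int wholly above low. The difference from none was 1.25 ± 0.27 in low (2.38-fold, adjusted p = 0.0127) and 2.01 ± 0.27 in int (4.03-fold, adjusted p = 3.09e-06). The int call held in every setting and on leaving out each array, and the low call ended without low replicate 5 (adjusted p = 0.0565) or none replicate 4 (0.053). Int against low, at 0.76 ± 0.27 (95% interval 0.21 to 1.31), was not called (adjusted p = 0.311). Of the 6 B cell markers, limma called only Cd22 in low against none (2.35, adjusted p = 4.93e-05) and only Ighm in int against none (-0.78, adjusted p = 8.93e-05). The summed signal of the 6, most of it from Ighm, was 9.41 to 9.75 in none, 9.91 to 10.03 in low and 8.75 to 9.24 in int cells. The part of B cells in the Cxcr4 differences was not tested.

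Withdrawal of antigen on day 10 left the Cxcr4 mean between those of none and int on day 30. The off arrays read 7.45, 7.3, 6.25, 6.59 and 6.71, all below the int arrays, and 4 of 5 above all none arrays. Off minus none was 1.02 ± 0.27 (95% interval 0.46 to 1.57, adjusted p = 0.107), 50.5% of the int difference. Off minus int was -0.99 ± 0.27 (95% interval -1.55 to -0.44, adjusted p = 0.112). Neither was called, but off against int passed without off replicate 1 (-1.14, adjusted p = 0.0465).

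**Figure D3:**
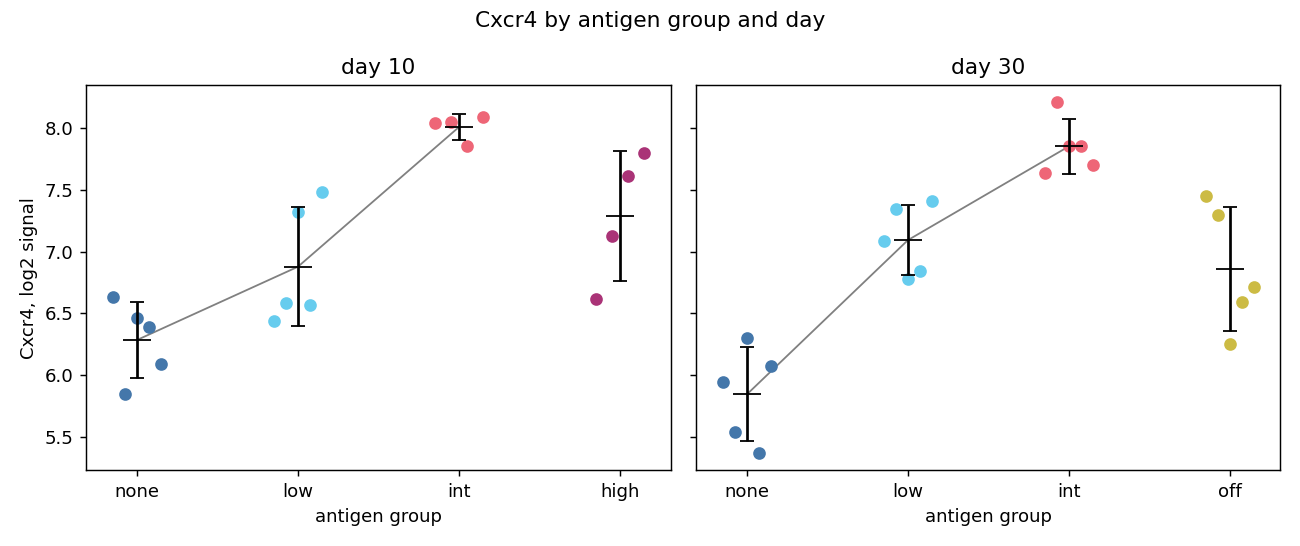
Cxcr4 log2 signal (vertical axis) on single arrays by antigen group on day 10 (left) and day 30 (right), with mean and SD and a line through the none, low and int means. Int arrays lie at 7.64 or more on both days, none arrays at 6.63 or less, and off arrays between 6.25 and 7.45.

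Over the 9 genes, limma called 0 in low against none on day 10 (0.00451% of all genes called), with 1 gene, Cxcr4, at an unadjusted p under 0.05. It called 2 in int against none on day 10 (1.24% of all genes), 2 in low against none on day 30 (0.654%) and 2 in int against none on day 30 (2.21%), all higher. At an unadjusted p under 0.05 there were 3, 3 and 5 in these, in that order. Limma called 0 in off against none (0.266%) and 0 in off against int (0.464%), with 2 at an unadjusted p under 0.05 in each. Between doses it called 0 in int against low on day 10 (0.541%), with 3 at an unadjusted p under 0.05, and 1 on day 30 (0.546%). Median differences of the 9 genes from none were -0.004, 0.05 and 0.37 in low, int and high on day 10 and -0.02, -0.11 and 0.004 in low, int and off on day 30. The medians over all genes were within -0.012 and 0.014 in these 6 comparisons.

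Ccr2, the monocyte chemoattractant receptor that effector T cells also use, was dim throughout. On day 10 it read 4.48, 4.8, 4.01 and 3.89 on int arrays against 3.04 to 3.72 on none arrays (0.84 ± 0.23, adjusted p = 0.0469). On day 30 it read 3.94, 4.38, 4.47, 3.71 and 3.93 on low arrays against 2.89 to 3.48 on none arrays (0.84 ± 0.21, adjusted p = 0.0484). The groups did not overlap in either case, and day 30 int cells, at 3.42 to 4.12, were not called (0.45 ± 0.21, adjusted p = 0.363). High cells, at 3.13 to 4.82, were called against int cells only without high replicate 3 (-0.81, adjusted p = 0.0373; with it -0.48, adjusted p = 0.391).

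Both Ccr2 calls stood at the edge of the threshold. The day 10 call ended on leaving out any of int replicates 1 to 3 or none replicates 2 to 5 (adjusted p 0.0567 to 0.257). Other settings that ended it were quantile normalization (0.0527), a replicate block (0.0701), no variance trend (0.0508) and the 4 arrays left out (0.0507). The day 30 call ended on leaving out low replicate 1, 2, 3 or 5 or any none array (adjusted p 0.0558 to 0.132), with a replicate block (0.061), no variance trend (0.0524) and only the compared groups (0.0872). Myeloid cells express Ccr2. The summed signal of the 11 myeloid markers was 6.98 to 7.80 in day 10 int and 7.01 to 9.37 in day 10 none cells, and 7.27 to 7.44 in day 30 low against 6.61 to 7.22 in day 30 none cells. Of the 11 markers, 0 were called in either comparison by limma, with 1 at an unadjusted p under 0.05 in each. S100a8 read 4.07 to 5.68 in day 30 low and 2.58 to 4.62 in day 30 none cells, and Lyz2 2.14 to 3.05 and 2.53 to 3.16. Csf1r stayed at 3.74 or less on every array, naive replicate 3 included. The part of myeloid cells in the Ccr2 differences was not tested.

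Ccr4, a receptor of Th2, skin-homing and regulatory T cells, was dim in all groups and highest on average in day 30 int cells. Its int values on day 30 were 3.55, 3.79, 4.01, 3.04 and 3.33, against 2.34 to 3.03 on none and 2.47 to 2.61 on low arrays. Int exceeded none by 0.99 ± 0.24 (adjusted p = 0.0154) and low by 1.01 ± 0.24 (adjusted p = 0.0356), and no arrays overlapped. The call against none ended without int replicate 2 (adjusted p = 0.0523) or 3 (0.0638). The call against low ended without int replicate 1, 2 or 3 or any low array (adjusted p 0.0621 to 0.134) and with no variance trend (0.0522). Ccr4 is left out by a filter on dim genes, since only 2 of the 43 arrays reached 4.

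The off arrays differed among themselves for Ccr4, at 4.69, 3.44, 2.62, 2.24 and 2.56. Off was called neither against none (0.55 ± 0.24, adjusted p = 0.38) nor against int (-0.43 ± 0.24, adjusted p = 0.729), but without off replicate 1 it was lower than int (-0.83, adjusted p = 0.019). Day 10 int arrays, at 2.2 to 3.08, were not above day 10 none arrays (-0.04 ± 0.26, adjusted p = 0.999). The int effect of day 30 exceeded the day 10 effect by 1.03 ± 0.35 (95% interval 0.32 to 1.75), which was not called (adjusted p = 0.5). A difference between the days is therefore not shown.

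The high group had constitutive presentation until day 10. It also differs from none and int in recipient strain, in the cells that present the peptide and in doxycycline before day 3 (0 against 100 µg/ml), and the amount of antigen cannot be told apart from these. Here 3 of the 9 genes were called against none (5.25% of all genes called), Ccr6 and Cxcr4 higher and Cxcr3 lower. Ccr6, the Ccl20 receptor of Th17 cells, B cells and some regulatory T cells, read 3.63, 3.46, 4.18 and 4.09 on high arrays and 3.04 to 3.26 on none arrays. The rise was 0.69 ± 0.16 (adjusted p = 0.00523), with no overlap. It held in the 6 other settings in which Ccr6 was tested and on leaving out each array (highest adjusted p 0.049). Ccr6 was dim, and only 3 of the 43 arrays reached 4, so the filter on dim genes leaves it out. The none values lay below the array medians, where signals are compressed. Against int, where 1 array read 3.88 and the others 2.92 to 3.16, the difference was 0.59 ± 0.17 (adjusted p = 0.0447). This was the only one of 9 genes called between high and int (2.99% of all genes).

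That second Ccr6 call ended on leaving out high replicate 4 or 5 or int replicate 1, 2 or 4 (adjusted p 0.115 to 0.216). Other settings that ended it were quantile normalization (0.0588), median centring (0.0634), a replicate block (0.0897) and only the compared groups (0.292). Of the 6 B cell markers, 1, Ighm, was lower in high than none cells (-0.54, adjusted p = 0.00976), and 5 were not called, with differences from -0.37 (Cd79b) to 0.17 (Pax5). The summed signal of the 6 B cell markers, most of it from Ighm, was 9.08 to 9.58 in high and 9.69 to 9.96 in none cells. Of the 5 regulatory T cell markers, 4 were higher in high than none cells, Ikzf2 by 2.40 (adjusted p = 4.85e-05), Nrp1 by 1.96 (adjusted p = 8.66e-07), Il2ra by 1.73 (adjusted p = 0.000174) and Ctla4 by 1.27 (adjusted p = 0.000307), while Foxp3 differed by -0.40 (adjusted p = 0.527). Their summed signal was 8.34 to 9.80 in high and 7.01 to 7.97 in none cells. The part of either cell type in the Ccr6 difference was not tested.

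Cxcr3 in the high group read 8.14, 8.97, 8.23 and 8.28, wholly below the day 10 none arrays. The fall was -0.93 ± 0.20 (1.91-fold, adjusted p = 0.00208), and it was called in all 7 other settings and on leaving out each of 9 arrays. Without the 4 arrays it was -0.78. Against int, at 8.71 to 9.17, Cxcr3 differed by -0.58 ± 0.22 (95% interval -1.02 to -0.15), which was not called (adjusted p = 0.162). Thy1, a sort marker, was also lower in high than in none cells (-1.07, adjusted p = 4.19e-09).

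**Figure D4:**
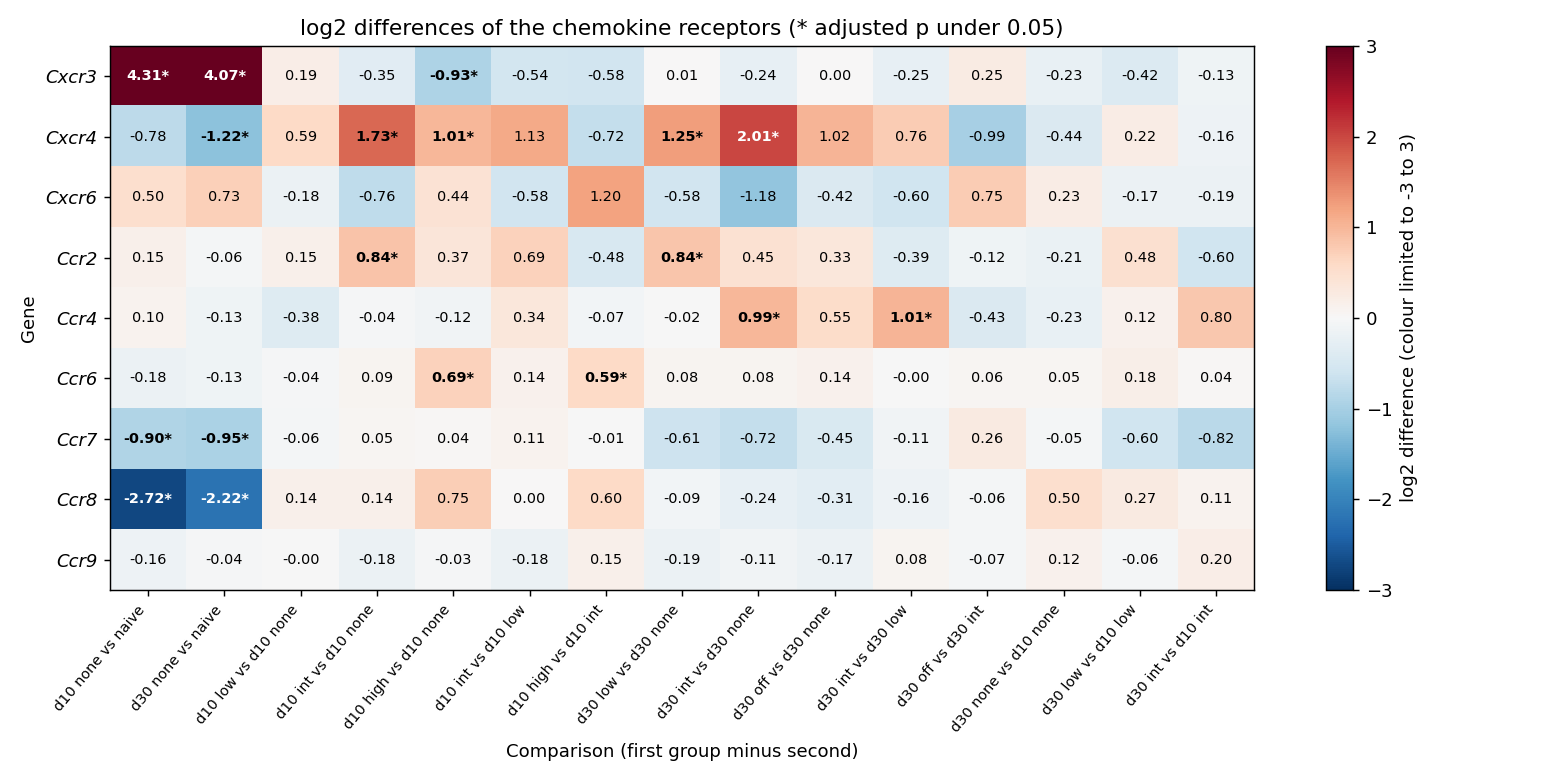
Each cell gives the log2 difference of a gene (rows) in a comparison (columns, first group minus second), coloured from blue (lower) to red (higher), with an asterisk at an adjusted p under 0.05. Of the 9 genes, Cxcr4 has the most asterisks (5), Cxcr6 and Ccr9 have none, and the last 3 columns, day 30 against day 10, hold none.

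Cxcr6 and Ccr9 were called in none of the 17 tests. For Cxcr6, a receptor of tissue-resident and effector T cells, the spread within groups was wide. Day 30 low arrays read 6.72, 4.81, 6.48, 4.17 and 4.77, and day 10 high arrays 6.56, 7.13, 6.2 and 4.82. Day 30 int arrays, at 4.82, 4.73, 4.99, 4.84 and 4.59, all lay below the day 30 none arrays, at 6.33, 6.5, 5.6, 5.56 and 5.86. The difference of -1.18 ± 0.35 (95% interval -1.87 to -0.48) just missed the threshold (adjusted p = 0.0587). It passed without dim genes (adjusted p = 0.0347), with quantile normalization (0.0355), with a replicate block (0.044) and with only the compared groups (0.0103).

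High against int on day 10 gave 1.20 ± 0.39 for Cxcr6 (adjusted p = 0.0847), and this passed without dim genes (0.0489), with a replicate block (0.0443) and without high replicate 5 (1.65, adjusted p = 0.00519). Ccr9, the gut-homing receptor, stayed at 2.67 to 3.72 on all 43 arrays, around the array medians, and its group means spanned 0.35. The 95% intervals of its 15 differences between groups lay within -0.51 and 0.52. At such low signal, a change of a rare transcript could be missed, although Ccr4 and Ccr6 were called from similarly dim signals.

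Day 30 was set against day 10 at the same dose. Cells of day 30 were sorted in a second series, so time and series cannot be told apart. By limma 0 of 9 genes were called in none (3.43% of all genes called), low (2.87%) and int cells (0.712%). At an unadjusted p under 0.05 there were 0, 3 and 3. On day 30 Ccr7 read 7.48, 7.34, 8.59, 8.25 and 8.2 in low and 8.21, 7.55, 7.34, 7.54 and 8.69 in int cells, against 7.7 to 8.97 and 8.35 to 9.38 on day 10. The differences were -0.60 ± 0.26 (95% interval -1.13 to -0.07, adjusted p = 0.219) and -0.82 ± 0.28 (95% interval -1.38 to -0.25, adjusted p = 0.184), and the groups overlapped. Cxcr4 differed by 0.22 ± 0.27 in low and -0.16 ± 0.29 in int cells.

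The change of the antigen effect from day 10 to day 30 was called for 0 of 9 genes by limma, both for int (0.0902% of all genes called) and for low (0.0316%). At an unadjusted p under 0.05 there was 1 gene in each, Ccr4 for int and Ccr2 for low (0.69 ± 0.30, adjusted p = 0.84). For Cxcr4 these differences were 0.28 ± 0.40 (95% interval -0.52 to 1.09) and 0.66 ± 0.39 (95% interval -0.13 to 1.44).

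Ordered by their means, the groups ran for Cxcr4 from day 10 int (8.01) and day 30 int (7.85) through high (7.29), day 30 low (7.09), naive (7.07), day 10 low (6.88) and off (6.86) to day 10 none (6.28) and day 30 none (5.84). No neighbours in this order were separated. For Cxcr3 the order began with day 10 low (9.53) and day 10 none (9.34), and only the last step, from high (8.40) to naive (5.03), was without overlap. For Ccr8 only the first step, from naive (5.37) to high (3.39), was without overlap. For the other 6 genes every pair of neighbouring groups overlapped. Overlap of neighbours was not counted over all genes, and an order by means places close groups side by side. It is therefore not a trait particular to these receptors. Ccr7 ran from naive (9.53) to day 30 int (7.87), Ccr2 from day 10 int (4.29) to day 30 none (3.24), Ccr4 from day 30 int (3.54) to day 10 low (2.41), Ccr6 from high (3.84) to day 10 low (3.11), and Cxcr6 from high (6.18) to day 30 int (4.79).

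Genes with the profile most like a receptor were found by Pearson's r over the 43 arrays, which share groups, as a description. Itgb1 (0.92), Itga4 (0.91) and Ccl5 (0.90) were nearest to Cxcr3. The first pair are the chains of the adhesion receptor VLA-4 and the third an effector chemokine. Nearest to Cxcr4 were Dgkz (0.82), a diacylglycerol kinase that damps receptor signals, the inhibitory receptor Ctla4 (0.82) and the transcription factor Irf4 (0.80). For Ccr8 they were Arhgap20 (0.84), Igfbp4 (0.79) and Tmem108 (0.78), for Ccr4 Cxcl13 (0.73), Esm1 (0.63) and Eomes (0.63), and for Ccr6 Nr4a2 (0.73), Ntrk3 (0.70) and Ap1s2 (0.69). The first for Ccr7 was Il6st (0.72), for Cxcr6 Il18r1 (0.66), for Ccr2 Syt11 (0.62) and for Ccr9 Zfp648 (0.57). Within groups, after group means were taken off, r between pairs of the 9 receptors ran from -0.41 (Cxcr3 and Ccr8) to 0.33 (Cxcr3 and Ccr7).

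Among 13 other chemokine receptors measured of 14 listed, only Cxcr5, which draws follicular helper cells to B cell areas, was called in any comparison. Of all genes, 0.00451% to 5.25% were called per test over the 17 tests. The shares were 1.24% and 2.21% in int against none on days 10 and 30, 0.541% in int against low on day 10 and 2.99% in high against int. Cxcr5 was higher in int than none on day 10 (1.63 ± 0.26, adjusted p = 6.86e-05) and day 30 (1.08 ± 0.24, adjusted p = 0.00646), higher in int than low on day 10 (1.23 ± 0.26, adjusted p = 0.00764) and lower in high than int (-1.65 ± 0.27, adjusted p = 6.25e-05). Of 14 ligands measured of 16 listed, only Cxcl10, a ligand of Cxcr3, was called. It averaged 4.05 in day 30 none, 6.27 in day 30 low and 6.43 in day 30 int cells, higher by 2.22 ± 0.43 (adjusted p = 0.0037) and 2.38 ± 0.43 (adjusted p = 0.000393). It was also higher in high than none on day 10 (1.48 ± 0.46, adjusted p = 0.0467) and in low on day 30 than on day 10 (1.87 ± 0.43, adjusted p = 0.0108). Of all genes, 0.654% were called in low and 2.21% in int against none on day 30. The shares were 5.25% in high against none and 2.87% in low on day 30 against day 10.

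Of 16 signalling genes downstream of the receptors, measured of 17 listed, 5 were called in none against naive on day 10, 3 higher and 2 lower, and 2 on day 30, 1 in each direction. Against none, 2 were called in int on day 10, 1 higher and 1 lower, 4 in high, 2 higher and 2 lower, 2 in low on day 30, 1 in each direction, and 5 in int on day 30, 2 higher and 3 lower. Of all genes, 3.3% and 4.33% were called in none against naive on days 10 and 30. The shares against none were 1.24% in day 10 int, 5.25% in high, 0.654% in day 30 low and 2.21% in day 30 int. Rgs16, which shortens G protein signals, was higher in int than none on day 10 (3.43 ± 0.40, adjusted p = 2.54e-07) and day 30 (2.13 ± 0.38, adjusted p = 0.000294). Rgs1, of the same family, was higher than none on day 30 in low (1.69 ± 0.30, adjusted p = 0.000756), int (1.48 ± 0.30, adjusted p = 0.00155) and off (1.67 ± 0.30, adjusted p = 0.00267). Arrb2, the beta-arrestin that takes receptors off the surface, was lower in int than none on day 10 (-0.67 ± 0.16, adjusted p = 0.0132) and day 30 (-0.68 ± 0.15, adjusted p = 0.00417). Pik3cg, the kinase of chemotactic signalling, was lower in day 30 low (-1.10 ± 0.20, adjusted p = 0.00156) and int (-1.13 ± 0.20, adjusted p = 0.000279), and higher in off than int (1.40 ± 0.20, adjusted p = 3.91e-05).

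Of 10 transcription factors known to act on these receptors, measured of 11 listed, 3 were called in none against naive on day 10, 2 higher and 1 lower, and 4 on day 30, 2 in each direction. Of all genes, 3.3% and 4.33% were called there, and 1.24% and 2.21% in int against none, on days 10 and 30. Klf2, which supports the exit receptors of resting T cells, was higher in none than naive cells (1.26 ± 0.20, adjusted p = 2.41e-05 on day 10). It was lower in int than none on day 10 (-0.83 ± 0.21, adjusted p = 0.0297) and in low than none on day 30 (-0.82 ± 0.20, adjusted p = 0.0347). In int against none 3 factors were higher and 2 lower on day 10, and 4 higher and 0 lower on day 30. Eomes (3.15 ± 0.51, adjusted p = 8.3e-05 on day 10, and 4.11 ± 0.48, adjusted p = 8.5e-08 on day 30) and Irf4 (2.82 ± 0.30, adjusted p = 6.43e-08, and 2.84 ± 0.29, adjusted p = 4.57e-09) were among them. In off, Eomes (-2.30 ± 0.48, adjusted p = 0.0087) and Irf4 (-2.03 ± 0.29, adjusted p = 3.79e-05) were lower than in int.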

How the data were processed

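Per the labels' protocols, total RNA (0.1 to 30 ng, integrity above 8) went through the Ovation Pico WTA System V2 for amplification and the Encore Biotin Module for labelling. The values deposited by the authors were log2 signals of 41345 probe sets, used as deposited. The log base was judged from their range (1.46 to 13.87), and the array processing, including background and normalization, is not given in the sources used here. Dim signals are compressed, so low genes' fold changes can be too small. Probe sets with 1 gene symbol (23521) were kept, 1814 with several and 16010 with none were left out, and the one with the highest mean stood for a gene. Of 22180 symbols, 22139 were in the RefSeq gene table. Listed genes without a probe set of their own were not analysed here.

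All arrays entered 1 model of limma 3.58.1 in R 4.3.3 (lmFit, eBayes with a variance trend) with 9 group means, 15 differences and 2 interactions, tested on simulated data. The members, the lists and the 4 arrays left out together were chosen with earlier results of these data known. All 9 members are named whatever their values, and up to 3 genes with the highest r to each member, leaving out predicted and small RNA genes. Of the list genes called, only a part is named. Bcl6, Bhlhe40 and Rgs10, for example, were also called in int against none on day 30. Alternatives were quantile normalization, median centring, a filter on dim genes (log2 4 on at least 4 arrays), only the compared groups, a replicate block, no variance trend, 4 arrays left out and each array left out in turn. No 2 arrays held identical values. The number of arrays limits the precision.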

Additional observations from a re-analysis of the deposited data

Results flagged for a closer look

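In 6 of 81 sets of values, each 1 receptor in 1 group, an array lay farther from the others than Dixon's gap test allows at its 95% level, where chance gives about 1 in 20. For Cxcr3 these were day 10 low replicate 4, at 9.1 below the others (9.55 to 9.71), day 10 high replicate 3, at 8.97 above the others (8.14 to 8.28), and day 30 int replicate 2, at 8.58 below the others (8.89 to 9.01). Ccr2 read 4.08 in day 10 low replicate 4, above the others (3.4 to 3.57). Ccr4 read 3.03 in day 30 none replicate 5, above the others (2.34 to 2.5). Ccr6 read 4 in off replicate 2, above the others (3.03 to 3.31). The Ccr4 value of 4.69 in off replicate 1 was not among them, since replicate 2 was also high.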

How the results depend on the processing

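Of 18 calls of a receptor, 8 held in every setting in which the gene was tested and on leaving out each array, and no call changed direction. These were Cxcr3 and Ccr8 against naive on both days, Cxcr3 and Ccr6 in high and Cxcr4 in int on both days, each against none. The number of receptors called moved by more than 1.5 times in these cases. In int against none on day 10 it was 1 in place of 2 with quantile normalization, the replicate block, no variance trend and the 4 arrays left out. In int against low on day 10 it was 1 in place of 0 without dim genes, with the replicate block, without the 4 arrays and with only the compared groups. In high against int it was 0 in place of 1 with quantile normalization, median centring and only the compared groups. In int against low on day 30 it was 0 in place of 1 without dim genes, where Ccr4 was not tested, and with no variance trend. In low against none on day 30 it was 1 in place of 2 with the replicate block, no variance trend and only the compared groups. In none against naive on day 30 it was 2 in place of 4 without the 4 arrays. Smaller moves were 3 in place of 4 there with only the compared groups, 2 in place of 3 in none against naive on day 10 with median centring, no variance trend and the 4 arrays left out, 2 in place of 3 in high against none without dim genes, where Ccr6 was not tested, and 3 in place of 2 in int against none on day 30 with quantile normalization, the replicate block and only the compared groups.

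Leaving out 1 array gave 2 to 3 receptors in none against naive on day 10 and 3 to 4 on day 30, 1 to 2 in int against none on both days, 2 to 3 in high against none, 0 to 2 in high against int, low against none on day 30 and off against int, and 0 to 1 in int against low on both days. It gave 0 in the other 7 tests. The replicate numbers gave little sign of pairing. Same-numbered arrays of 2 groups had deviations from their group means that correlated at -0.14 to 0.12, with a correlation above 0.1 for at most 1 pair in any comparison. In high against int, however, 3 of 3 high arrays correlated best with the int array of their own number, at 0.03 to 0.10. The block is given only as an alternative. The next probe set of a receptor was not run, since each has 1.

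Counts over all genes moved by more than 1.5 times in the settings that follow. With only the compared groups they were 438 in place of 961 (none against naive, day 30), 2 in place of 1 (low against none, day 10), 208 in place of 120 and 45 in place of 121 (int against low, days 10 and 30), 345 in place of 664 (high against int), 74 in place of 145, 292 in place of 491 and 18 in place of 59 (low, int and off against none, day 30), 35 in place of 103 (off against int), 353 in place of 761 (none, day 30 against day 10), and 10 in place of 20 and 16 in place of 7 (interactions for int and low). Without the 4 arrays they were 384 in place of 733 (none against naive, day 10), 0 in place of 1 (low against none, day 10) and 262 in place of 158 (int, day 30 against day 10). Without dim genes, which left 10194 genes and 6 of the 9 receptors, the last was 274, and the low interaction 13 in place of 7. Quantile normalization gave 384 in place of 636 (low, day 30 against day 10) and 0 in place of 1 (low against none, day 10), as did no variance trend for the latter. Leaving out 1 array also moved them this far. Low, day 30 against day 10, gave 281 to 407 in place of 636 without day 10 low replicate 1, 2 or 3 or day 30 low replicate 4, and none gave 366 to 463 in place of 761 without day 10 none replicate 1, 2, 3 or 5. Int, day 30 against day 10, gave 71 to 97 in place of 158 without day 10 int replicate 1 or 3 or day 30 int replicate 3. Int against none on day 10 gave 170 to 171 in place of 276, and int against low 78 to 79 in place of 120, without int replicate 3 or 4. Int against low on day 30 gave 67 to 78 in place of 121 without low replicate 1, 3 or 4 or int replicate 2. Low against none on day 30 gave 94 in place of 145 without low replicate 5. Off against none gave 24 and 29 in place of 59 without off replicates 1 and 2, and off against int 66 and 53 in place of 103 without off replicates 4 and 5. Low against none on day 10 gave 0 in place of 1 without low replicate 1, 2, 3 or 4 or none replicate 1, 4 or 5. The shares of all genes called move with these counts. The cause was not tested beyond the genes and arrays left out.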
